A study of Mus musculus with 20 samples.

Results

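The 10 genes described here are the transcription factor genes of the epithelial-mesenchymal transition (EMT), Snai1, Snai2, Zeb1, Zeb2, Twist1, Twist2 and Prrx1, with the cadherin genes Cdh1 and Cdh2 and the vimentin gene Vim. They were taken by symbol from the 20636 Ensembl genes of the table, and all 10 were found. EMT is a programme in which epithelial cells loosen their junctions and take on features of mesenchymal cells. The SNAI and ZEB proteins are zinc finger repressors that bind E-box sequences, among them those of the E-cadherin gene. TWIST proteins are basic helix-loop-helix factors and PRRX1 is a homeobox factor, and these are also expressed by fibroblasts, so in pancreatic tumours with abundant stroma their RNA can come from several cell types.

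RNA was sequenced in bulk from acinar-derived pancreatic ductal adenocarcinomas of mice, 5 tumours in each of 3 groups. KPAT tumours carried floxed Trp53, the gene of p53, and floxed Arf. KAT tumours carried floxed Arf with Trp53 not floxed, and KPT tumours floxed Trp53 with Arf not floxed. The labels give each floxed gene as fl/fl, floxed on both alleles. All 3 groups shared the activatable oncogene allele KrasLSL-G12D, a Rosa26LSL-tdTomato reporter on both alleles, and the Cre driver Ptf1aCreER, a tamoxifen-inducible recombinase expressed from the locus of an acinar transcription factor. The mice were given 5 mg tamoxifen by gavage on each of 3 days when they were 8 to 10 weeks old, and tumours were taken at morbidity. The 5 KT samples, with neither Trp53 nor Arf floxed, are not analysed here. The labels number the tumours but do not say that each came from a separate mouse, so the p-values measure the spread between these tumours.

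The libraries held 14696138 to 26248484 reads in KPAT, 16704627 to 22124495 in KAT and 16622901 to 23039354 in KPT tumours. Levels are given in deposited units, which are reads divided by a factor for each library, at about 19.5 reads per unit. Each fold change is a difference in log2(normalized count + 1), which understates changes of low genes, and the threshold was an adjusted p of 0.05 in limma over the 16648 genes tested. Trp53 ranged from 32.9 to 57.2 in KPAT, 99.0 to 148 in KAT and 22.7 to 26.3 in KPT tumours, lowest in the groups with the floxed gene. Cdkn2a, whose locus holds the Arf exon, ranged from 268 to 907 in KPAT, 150 to 690 in KAT and 216 to 335 in KPT tumours. Its reads check nothing about recombination, since which exons were floxed is not in the labels. The tumours carried epithelial RNA throughout. The summed level of 9 ductal markers was 8489 to 8813 in KPAT, 5616 to 9254 in KAT and 7689 to 10863 in KPT tumours, with none of the 9 at 0 in any library.

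Promoter sequences are shown for 4 members. Of these, Snai1, Zeb2 and Prrx1 were higher in tumours with floxed Arf, and Twist1 was not called in any comparison. A link between these sequences and the levels was not tested. Each window runs from 250 bases before to 50 after an annotated start (RefSeq, GRCm38.p6), and capitals mark an E-box, CANNTG, the kind of element bound by SNAI, ZEB and TWIST proteins.
Snai1, chr2:167537945-167538244, plus strand: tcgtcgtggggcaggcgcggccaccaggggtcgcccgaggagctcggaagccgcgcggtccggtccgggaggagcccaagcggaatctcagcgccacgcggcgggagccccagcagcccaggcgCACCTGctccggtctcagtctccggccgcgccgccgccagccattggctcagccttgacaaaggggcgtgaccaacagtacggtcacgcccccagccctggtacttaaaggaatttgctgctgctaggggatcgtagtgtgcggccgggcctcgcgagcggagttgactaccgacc
Zeb2, chr2:45117393-45117692, minus strand: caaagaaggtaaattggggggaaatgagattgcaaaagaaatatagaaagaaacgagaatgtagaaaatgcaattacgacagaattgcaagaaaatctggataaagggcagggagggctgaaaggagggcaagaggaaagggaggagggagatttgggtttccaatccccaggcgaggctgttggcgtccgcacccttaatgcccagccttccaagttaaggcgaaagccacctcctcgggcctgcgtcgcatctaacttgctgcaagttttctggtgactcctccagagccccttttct
Prrx1, chr1:163313601-163313900, minus strand: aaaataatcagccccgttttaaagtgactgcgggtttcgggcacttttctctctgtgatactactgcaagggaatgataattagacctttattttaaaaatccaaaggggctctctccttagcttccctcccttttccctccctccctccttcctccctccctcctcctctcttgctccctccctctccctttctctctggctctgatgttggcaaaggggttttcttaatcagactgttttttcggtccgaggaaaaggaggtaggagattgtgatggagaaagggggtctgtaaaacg
Twist1, chr12:33957421-33957720, plus strand: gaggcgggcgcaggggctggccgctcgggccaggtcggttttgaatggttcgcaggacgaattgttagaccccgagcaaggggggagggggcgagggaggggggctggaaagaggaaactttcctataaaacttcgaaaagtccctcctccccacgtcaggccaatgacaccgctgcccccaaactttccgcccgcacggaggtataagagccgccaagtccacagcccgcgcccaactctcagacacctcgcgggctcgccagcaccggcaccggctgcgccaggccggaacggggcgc
The Snai1 window held 1 E-box at position -126 from the start, of the form CACCTG. The motif CANNTG reads the same on both strands and occurred in 72.3% of all 32851 promoter windows of this length. Its form CACCTG, searched on both strands, occurred in 20.2% of them. The windows shown for Zeb2, Prrx1 and Twist1 held no CANNTG. Zeb2 had 4 windows, of which the one farthest upstream is shown. None of the 4 held CANNTG, their GC content ran from 49.3% to 60.7%, and another held 2 copies of TGANTCA, an AP-1 motif present in 7.81% of all windows. The TATA box motif TATAAA, searched on both strands, occurred 1 time in the Twist1 window, in none of the other 3 windows shown, and in 13.6% of all windows. GC content was 70% in the Snai1 window, 66% in Twist1, 49.3% in the Zeb2 window shown and 47.7% in Prrx1. In the table of promoters 6 of the 10 members had an entry. Snai2, Zeb1, Cdh1 and Cdh2 are named only.

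Comparing KPAT with KPT asks what floxed Arf adds where Trp53 is already floxed. Snai1, Zeb1, Zeb2 and Prrx1 were higher in KPAT tumours, by 4.59-fold, 1.80-fold, 1.88-fold and 2.56-fold. Comparing KAT with KPT sets floxed Arf alone against floxed Trp53 alone, and the same 4 factor genes were higher in KAT, by 3.06-fold, 1.57-fold, 2.53-fold and 2.09-fold, with Cdh1 lower. Between KPAT and KAT no member passed the threshold. Of the 10 members in KPAT against KPT, 4 were higher, none lower, 5 did not pass and Twist2 was too low to test. Of all genes tested, 16.5% were called in that comparison, 9.13% as higher and 7.4% as lower. In KAT against KPT 4 members were higher, 1 was lower and 4 did not pass, where 28.9% of all genes were called, 15.6% as higher and 13.3% as lower. In KPAT against KAT 0 of 9 tested members were called by limma, and 0 by edgeR or DESeq2. At an unadjusted p below 0.05 in limma there was 1 member, and 1798 of all 16648 genes tested. Of all genes, 0.0481% were called there, 0.036% as higher and 0.012% as lower. The median log2 fold change over the 9 tested members was 0.84 in KPAT against KPT, beside 0.02 over all genes. It was 0.66 in KAT against KPT, beside 0.03, and 0.38 in KPAT against KAT, beside -0.0026. KPAT and KAT are set against the same 5 KPT tumours, so their results share those samples.

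**Figure D1:**
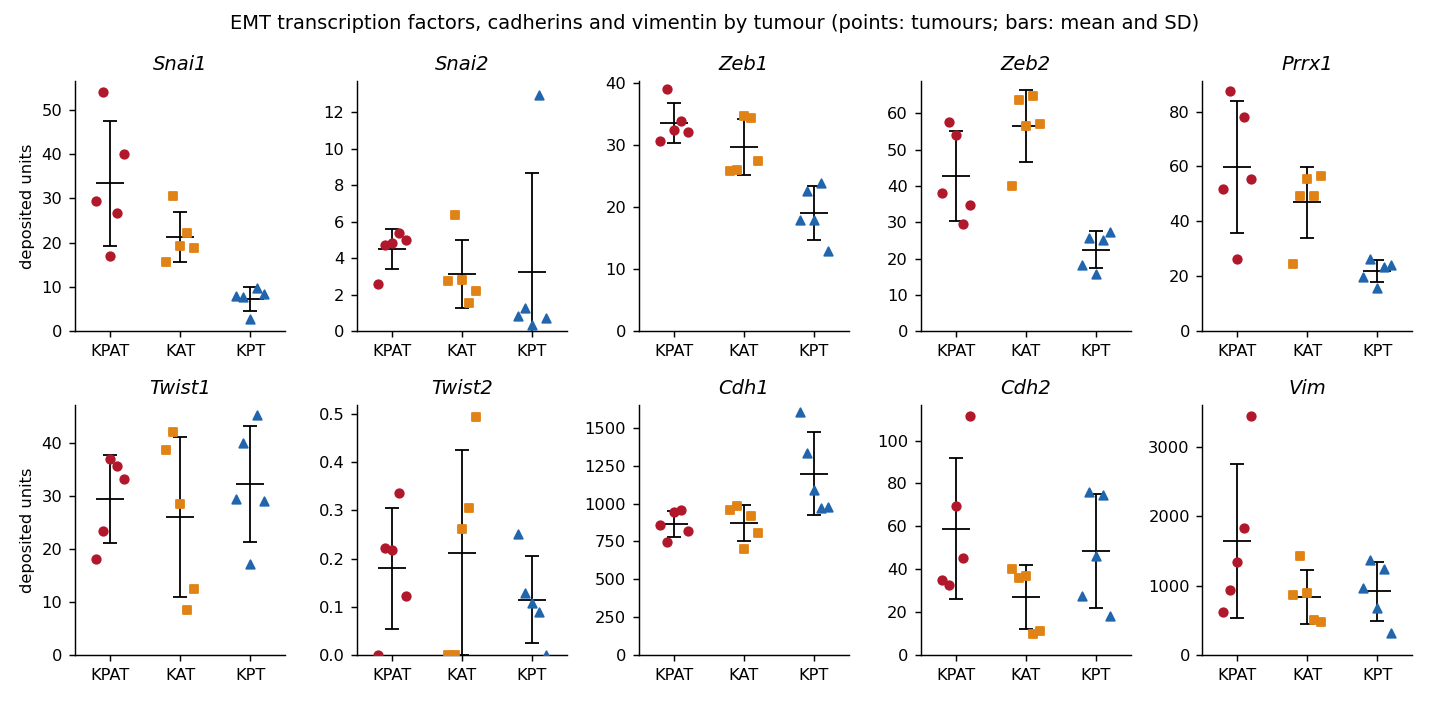
Level of each member in deposited units (y axis, from 0) in 5 KPAT, 5 KAT and 5 KPT tumours (x axis). Points are tumours and black bars are mean and SD. Snai1, Zeb1 and Zeb2 lie higher in every KPAT and KAT tumour than in any KPT tumour, while Twist1, Cdh2 and Vim overlap between all groups.

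**Figure D2:**
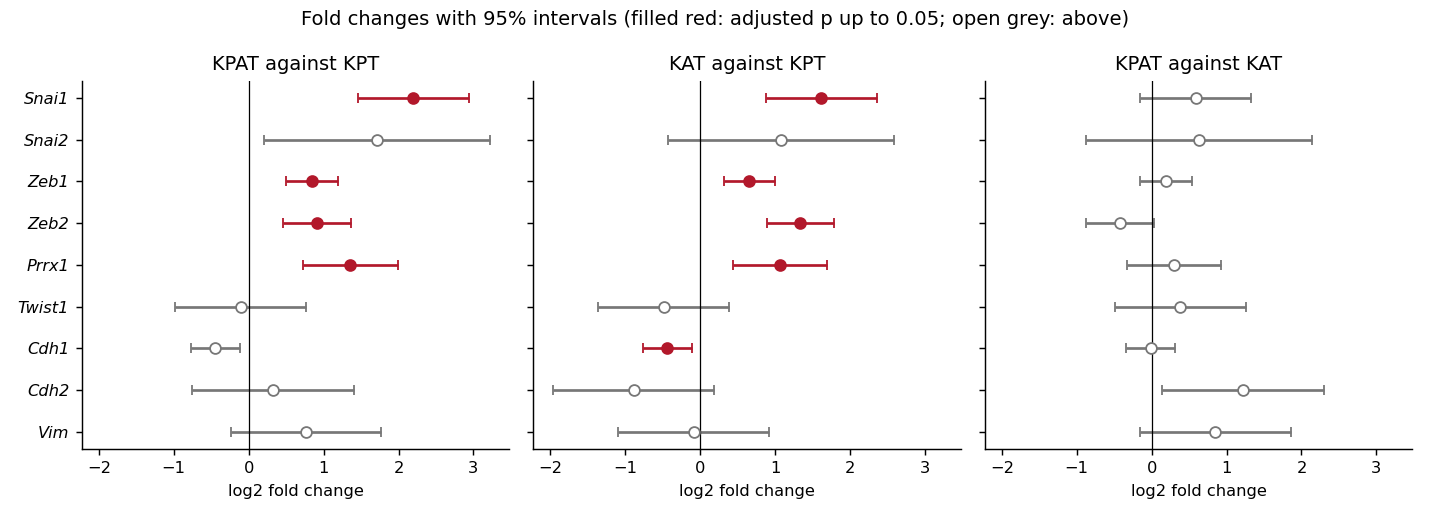
Log2 fold change of the 9 tested members (x axis) with 95% intervals from limma, for KPAT against KPT, KAT against KPT and KPAT against KAT. Filled red points had an adjusted p up to 0.05, open grey points did not. Snai1 (2.20 and 1.61), Zeb1, Zeb2 and Prrx1 are filled in the first pair of panels, Cdh1 is filled in the KAT against KPT panel only, and no point is filled in the KPAT against KAT panel.

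Snai1 (ENSMUSG00000042821, chromosome 2, 167538195 to 167542814, GRCm38) encodes SNAIL, a repressor of E-cadherin. Its level was 29.4, 54.0, 17.1, 26.6 and 40.1 in KPAT tumours 1 to 5. In KAT tumours it was 15.6, 30.5, 19.2, 22.2 and 18.7, and in KPT tumours 7.88, 7.80, 2.70, 9.69 and 8.51. Every KPAT and every KAT tumour exceeded every KPT tumour, while KPAT and KAT overlapped. The groups did not overlap for 9.97% of all genes in KPAT against KPT, and for 17.6% where KAT was set against KPT. Between KPAT and KAT this share was 2.72%. The log2 fold change was 2.20 in KPAT against KPT (SE 0.35, limma adjusted p = 0.00248) and 1.61 in KAT against KPT (SE 0.35, limma adjusted p = 0.00401). For KPAT against KAT it was 0.59, with a 95% interval of -0.16 to 1.33. No single library ended either call: with 1 left out the log2 fold change ran from 1.87 to 2.42 for KPAT and from 1.29 to 1.74 for KAT against KPT. With the fibroblast marker level of each tumour as a covariate it was 0.96 (adjusted p = 0.113) for KPAT and 0.23 (adjusted p = 0.718) for KAT against KPT. Over all alternatives the adjusted p ran from 3.80e-08 to 0.135 for KPAT and from 8.81e-05 to 0.717 for KAT against KPT.

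Snai2 (ENSMUSG00000022676, chromosome 16, 14705852 to 14709385), which encodes the related repressor SLUG, was read far less often, with 6 to 294 reads per library. Its level was 2.58, 4.74, 4.85, 5.37 and 4.99 in KPAT, 2.77, 6.37, 2.82, 1.57 and 2.20 in KAT, and 0.853, 1.28, 0.324, 12.9 and 0.713 in KPT tumours. KPT 4 held the highest value of all 15 tumours, and the other 4 KPT tumours the lowest 4. The log2 fold change was 1.71 in KPAT against KPT (SE 0.71, limma adjusted p = 0.111) and 1.08 in KAT against KPT (SE 0.71, limma adjusted p = 0.265), and neither passed. The KAT direction turned with the tool: the KAT mean was 3.14 ± 1.87 against 3.22 ± 5.45 in KPT, and edgeR and DESeq2 gave -0.038 and -0.039. Without KPT 4 both passed, at 2.53 (adjusted p = 0.00332) and 1.90 (adjusted p = 0.00665). Over all alternatives the adjusted p was between 0.00332 and 0.713 for KPAT and from 0.00665 to 0.976 for KAT against KPT. KPAT against KAT was 0.63 (95% interval -0.88 to 2.14).

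Zeb1 (ENSMUSG00000024238, chromosome 18, 5591860 to 5775467) encodes a zinc finger homeobox repressor of epithelial genes. It stood at 30.7, 39.0, 32.4, 33.9 and 32.0 in KPAT tumours, 25.8, 25.9, 34.7, 34.4 and 27.4 in KAT tumours and 17.9, 22.5, 18.0, 23.9 and 12.9 in KPT tumours. The KPAT tumours were the most alike of the 3 groups, with a coefficient of variation of 9.57%, against 15.3% in KAT and 22.8% in KPT. Each KPAT and KAT tumour lay above each KPT tumour. Zeb1 was higher in KPAT than KPT by 0.84 on the log2 scale (SE 0.16, limma adjusted p = 0.00523) and in KAT than KPT by 0.66 (SE 0.16, limma adjusted p = 0.00846). KPAT against KAT was 0.19 (95% interval -0.15 to 0.53). The fibroblast covariate left 0.67 (SE 0.24, adjusted p = 0.142) for KPAT and 0.46 (SE 0.26, adjusted p = 0.292) for KAT against KPT. Over all alternatives the adjusted p ran from 6.42e-05 to 0.307 and from 0.00134 to 0.393.

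Zeb2 (ENSMUSG00000026872, chromosome 2, 44983632 to 45117395), the paralogue of Zeb1, is also expressed in macrophages. Its level was 38.1, 57.7, 54.0, 29.4 and 34.8 in KPAT tumours, 39.9, 63.7, 56.5, 64.8 and 57.1 in KAT tumours and 18.3, 25.7, 15.8, 25.1 and 27.4 in KPT tumours. Zeb2 was the member with the largest log2 fold change after Snai1 in KAT against KPT, at 1.34 (SE 0.21, limma adjusted p = 0.000686), with no overlap. For KPAT against KPT it was 0.91 (SE 0.21, limma adjusted p = 0.0117), again with no overlap. Unlike the other factor genes Zeb2 had a negative estimate in KPAT against KAT, -0.43 with a 95% interval of -0.88 to 0.03, which did not pass (limma adjusted p = 0.484). With the fibroblast covariate the log2 fold change was 0.58 (SE 0.31, adjusted p = 0.297) for KPAT against KPT. It was 0.97 (SE 0.33, adjusted p = 0.0909) for KAT against KPT. Over all alternatives the adjusted p ran from 0.000622 to 0.347 and from 1.04e-07 to 0.118. The antisense gene Zeb2os overlaps Zeb2 and averaged 0.333 deposited units. The strand setting of the counting is not given in the sources used here, so reads of such a pair may not be told apart.

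Prrx1 (ENSMUSG00000026586, chromosome 1, 163245119 to 163313710) encodes a homeobox factor of mesenchymal cells and fibroblasts. Its level was 51.8, 87.5, 26.4, 77.8 and 55.6 in KPAT tumours, 24.7, 49.1, 55.4, 49.2 and 56.4 in KAT tumours and 19.9, 26.2, 15.8, 23.4 and 24.1 in KPT tumours. All KPAT values exceeded the KPT values, KPAT 3 by the narrowest margin, and KAT 1 fell within the KPT range. The log2 fold change was 1.36 in KPAT against KPT (SE 0.30, limma adjusted p = 0.00887) and 1.06 in KAT against KPT (SE 0.30, limma adjusted p = 0.0160), and 0.30 in KPAT against KAT (95% interval -0.34 to 0.93). With the fibroblast covariate the KAT against KPT value was 0.0034 (SE 0.34, adjusted p = 0.997). The KPAT against KPT value was 0.41 (SE 0.32, adjusted p = 0.483). Without KPT 3, KAT 2 and KPAT 5 together the KAT against KPT value was 0.92 and was not called (adjusted p = 0.0762). Over all alternatives the adjusted p ran from 0.00148 to 0.997 for KAT and from 4.55e-05 to 0.483 for KPAT against KPT.

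Twist1 (ENSMUSG00000035799, chromosome 12, 33957671 to 33959829), a basic helix-loop-helix factor gene of mesoderm and a classical EMT inducer, did not follow the other factor genes. It stood at 18.1, 23.3, 37.1, 35.7 and 33.3 in KPAT tumours, 38.7, 42.1, 28.6, 8.49 and 12.5 in KAT tumours and 29.4, 40.1, 17.3, 45.4 and 29.0 in KPT tumours. KAT 4 and KAT 5 held the lowest values of the 15 tumours, and KAT spanned nearly the whole range. The log2 fold change was -0.11 in KPAT against KPT (95% interval -0.98 to 0.77), -0.49 in KAT against KPT (-1.36 to 0.39) and 0.38 in KPAT against KAT (-0.49 to 1.26), and none passed. With array weights the KAT against KPT value was called (-1.24, adjusted p = 0.0409; 0.0409 to 0.795 over all alternatives). Twist2 (ENSMUSG00000007805, chromosome 1, 91801461 to 91848028), its close relative, was at the edge of detection, with 0 to 9 reads per library and 49 reads in all 15 libraries. It had 0 reads in KPAT 1, KAT 1, KAT 2 and KPT 5, and its highest level was 0.494 in KAT 5. Its mean stood below the minimum of 10 reads. With no minimum applied it was not called in any comparison (adjusted p = 0.764, 0.97 and 0.821 for KPAT against KPT, KPAT against KAT and KAT against KPT).

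Cdh1 (ENSMUSG00000000303, chromosome 8, 106603351 to 106670246) encodes E-cadherin, the adhesion molecule of epithelial junctions and a target of SNAI and ZEB repression. Its level was 859, 746, 942, 957 and 820.5 in KPAT tumours, 958, 986, 698, 922 and 808 in KAT tumours and 1609, 1338, 1088, 973 and 980.1 in KPT tumours. The 5 KPAT values lay below the 5 KPT values, with KPT 1 and KPT 2 well above the rest. The mean was 865 ± 87.5 in KPAT, 874 ± 119 in KAT and 1198 ± 273 in KPT (SD, n = 5 each). Cdh1 was lower in KAT than KPT, with a log2 fold change of -0.44 (SE 0.15, limma adjusted p = 0.0441). The estimate for KPAT against KPT was -0.45 (SE 0.15) and did not pass (limma adjusted p = 0.0584). Of 15 fits that left out 1 library each, 10 ended the KAT call (without KPAT 1, KPAT 3, KPAT 4, KPAT 5, KAT 3, KAT 4, KAT 5, KPT 1, KPT 2 or KPT 3), and the adjusted p reached 0.111. The KPAT against KPT difference passed without KPT 4 or KPT 5 (adjusted p = 0.0396 and 0.0420), by edgeR (0.0487) and by DESeq2 (0.0163). Under quantile scaling the KAT against KPT value was -0.15 (adjusted p = 0.37), and with the tumour number as a replicate block, -0.44 (adjusted p = 0.0593). Over all alternatives the adjusted p ran from 0.0155 to 0.948 for KAT and from 0.0163 to 0.918 for KPAT against KPT. KPAT against KAT was -0.01, with a 95% interval of -0.34 to 0.32.

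Cdh2 (ENSMUSG00000024304, chromosome 18, 16588877 to 16809246) encodes N-cadherin, found in mesenchymal, neural and endocrine cells. It stood at 35.0, 32.8, 69.7, 45.0 and 112 in KPAT tumours, 40.3, 35.9, 36.7, 9.88 and 11.3 in KAT tumours and 27.3, 76.2, 46.0, 74.7 and 18.1 in KPT tumours. KPAT 5 was highest and KAT 4 and KAT 5 were lowest, the same KAT tumours that were lowest in Twist1. The log2 fold change was 0.33 in KPAT against KPT (95% interval -0.75 to 1.41, limma adjusted p = 0.696) and -0.89 in KAT against KPT (95% interval -1.97 to 0.19, limma adjusted p = 0.198). In KPAT against KAT it was 1.22 (95% interval 0.14 to 2.29), with an unadjusted p of 0.0297 and a limma adjusted p of 0.405, higher than the KAT median in 3 of 5 KPAT tumours. The KAT against KPT difference was called with array weights (-1.72, adjusted p = 0.0150; 0.0150 to 0.893 over all alternatives).

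Vim (ENSMUSG00000026728, chromosome 2, 13573927 to 13582826) encodes the intermediate filament protein vimentin of mesenchymal cells and leukocytes. Its level was 624, 942, 1344, 1835 and 3451 in KPAT tumours, 862, 1431, 887, 510.2 and 469 in KAT tumours and 966, 1376, 684, 1241 and 313 in KPT tumours. KPAT 5 was highest and KPT 5 lowest, and the groups overlapped in all 3 comparisons. The log2 fold change was 0.76 in KPAT against KPT (95% interval -0.24 to 1.77), -0.09 in KAT against KPT (-1.09 to 0.92) and 0.85 in KPAT against KAT (-0.15 to 1.86), and none passed (limma adjusted p = 0.280, 0.909 and 0.528). The intervals leave room for differences of more than 2-fold in either KPAT comparison.

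Per kilobase of annotated exon, Vim and Cdh1 were the most abundant members, at 238 and 214 deposited units over all tumours. Vim exceeded Cdh1 in 7 of 15 tumours, so their order is not fixed. Twist1 followed at 18.0, Snai1 at 12.7, Cdh2 at 5.54, Prrx1 at 3.88, Zeb1 at 2.67, Zeb2 at 2.03, Snai2 at 1.79 and Twist2 at 0.0532. The step from Cdh1 to Twist1 and the step from Snai2 to Twist2 held in 15 of 15 tumours, and every other neighbouring pair changed places in at least 3 tumours. Snai1 per kilobase was 20.6 ± 8.71 in KPAT and 13.1 ± 3.51 in KAT, against 4.51 ± 1.66 in KPT (SD, n = 5 each). Cdh1 exceeded Cdh2 per kilobase in every tumour, by 13.0 to 43.2 times in KPAT, 33.6 to 165 times in KAT and 23.0 to 104 times in KPT. The ratio was highest in KAT 4 and KAT 5, at 165 and 127, and lowest in KPAT 5, at 13.0. No tumour of any group had more Cdh2 than Cdh1.

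The members differed in how much of their variation lay between genotypes. On the log2 scale the differences between group means held 75.7% of the variance of Zeb2, 75.2% of Snai1, 72.6% of Zeb1 and 62.0% of Prrx1. The share was 49.9% for Cdh1, 29.4% for Snai2, 29.3% for Cdh2, 21.1% for Vim and 9.63% for Twist1. The mesenchymal filament and the N-cadherin gene varied within groups instead. Over the 15 tumours Cdh2 followed Vim (Pearson r = 0.807, permutation p = 0.00024, adjusted p = 0.00324 over 81 relations; Spearman rho = 0.718, permutation p = 0.00376, adjusted p = 0.0254). Without KPAT 5 and KPT 5, the 2 tumours farthest from the median Vim level, r was 0.752, and with each tumour taken relative to its group mean it was 0.825. Snai1 and Vim had no such relation (r = 0.323, permutation p = 0.239, adjusted p = 0.379, and rho = 0.261, permutation p = 0.347, adjusted p = 0.502). Their group-centred r was 0.156, and r was 0.0518 without KPAT 5 and KPT 5. Other pairs passed too, among them Twist1 with Cdh2 (r = 0.747, permutation p = 0.0015, adjusted p = 0.012, but r = 0.382 without KAT 4 and KAT 5). Cdh1 was lower where Zeb2 (r = -0.683, permutation p = 0.0037, adjusted p = 0.0217) and Prrx1 (r = -0.681, permutation p = 0.00301, adjusted p = 0.0203) were higher. Relative to the group means these were -0.294 and -0.309.

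Fibroblast markers moved with the 4 factor genes. Of all genes, 9.13% were higher in KPAT and 15.6% in KAT than in KPT. Of the 10 fibroblast markers 6 were higher in KPAT than KPT and none lower (median log2 fold change 1.36). All 10 were higher in KAT than KPT (median 1.63). Their summed level was 4931 to 13894 deposited units in KPAT, 6504 to 9584 in KAT and 912 to 4061 in KPT tumours, and no marker was at 0 in any library. The tumour's mean marker level on the log2 scale was 12.04 ± 0.60 in KPAT and 12.21 ± 0.32 in KAT, against 10.55 ± 0.79 in KPT (SD, n = 5 each). Its difference from KPT had an exact two-sided permutation p of 0.0159 for KPAT (adjusted p = 0.105 over 33 comparisons) and 0.00794 for KAT (adjusted p = 0.0873), where 0.00794 is the smallest p that 5 against 5 tumours allow. In bulk tumour RNA, more fibroblasts and more RNA of these genes per cell cannot be told apart. Over the 15 tumours Snai1 rose with the fibroblast level (r = 0.904, permutation p = 1e-05, adjusted p = 0.00027; rho = 0.789, permutation p = 0.00073, adjusted p = 0.00657), where 1e-05 is the smallest p these permutations give. Without KPT 3 and KPT 4, the tumours farthest from the median, r was 0.822, and it was 0.841 relative to the group means. The Prrx1 relation was as close (r = 0.881, permutation p = 1e-05, adjusted p = 0.00027; rho = 0.854, permutation p = 7e-05, adjusted p = 0.00284; r = 0.878 without KPT 3 and KPT 4, and 0.753 relative to the group means).

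For Zeb1 the pooled relation with the fibroblast level was r = 0.745 (permutation p = 0.00191, adjusted p = 0.0141; rho = 0.789, permutation p = 0.00073, adjusted p = 0.00657; r = 0.792 without KPT 3 and KPT 4), but relative to the group means r was 0.286. It also rose with the endothelial level (r = 0.688, permutation p = 0.00443, adjusted p = 0.0239; rho = 0.7, permutation p = 0.00486, adjusted p = 0.0264; r = 0.656 without KAT 3 and KAT 4), with 0.503 relative to the group means. So did Zeb2 (r = 0.683, permutation p = 0.00539, adjusted p = 0.0260), with 0.151 relative to the group means. Zeb2 rose with the fibroblast level (r = 0.798, permutation p = 0.00021, adjusted p = 0.00324; rho = 0.846, permutation p = 0.00011, adjusted p = 0.00297; r = 0.680 without KPT 3 and KPT 4), with 0.380 relative to the group means. It rose with the macrophage level as well, and the difference between these relations was not tested (r = 0.874, permutation p = 9e-05, adjusted p = 0.00182; rho = 0.918, permutation p = 1e-05, adjusted p = 0.00081; r = 0.883 without KAT 2 and KPT 4), with 0.556 relative to the group means. By rank, Zeb1 and Snai1 passed with the macrophage level too (rho = 0.682 and 0.664, permutation adjusted p = 0.0313 and 0.0337). Their Pearson r did not pass (0.541 and 0.588, permutation adjusted p = 0.0926 and 0.0681). Of all genes, 9.13% were higher in KPAT and 15.6% in KAT than in KPT. Of the 9 macrophage markers, 4 were higher in KPAT than KPT and 7 in KAT than KPT. None was lower, and none was at 0 in any library. Their summed level was 506 to 972 in KPAT, 756 to 1621 in KAT and 394 to 585 in KPT tumours. The mean macrophage level differed from KPT with an exact permutation p of 0.0159 for KPAT (adjusted p = 0.105 over 33 comparisons). For KAT it was 0.00794 (adjusted p = 0.0873), and neither passed after adjustment. Vim did not track the fibroblast level (r = 0.13, permutation p = 0.643, adjusted p = 0.713; rho = -0.0429, permutation p = 0.886, adjusted p = 0.897; r = 0.104 without KPT 3 and KPT 4, and 0.0138 relative to the group means). Beyond the fits with the fibroblast covariate given beside each gene, the part of fibroblast or macrophage content in the factor genes' differences was not tested. None of the factor genes passed in those fits. Of all 16648 genes, calls fell there from 2752 to 342 in KPAT against KPT and from 4805 to 917 in KAT against KPT. The covariate was itself lower on average in KPT tumours, so these fits do not separate it from genotype.

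**Figure D3:**
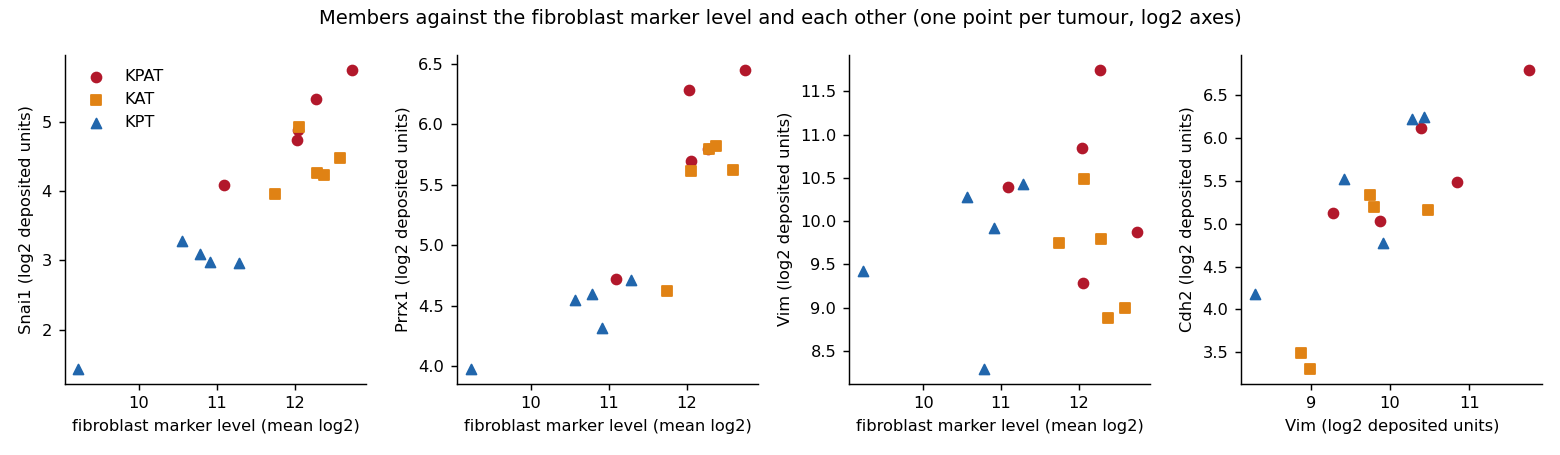
Snai1, Prrx1 and Vim (y axes, log2 deposited units) against the mean log2 level of 10 fibroblast markers (x axes), and Cdh2 against Vim in the last panel. Each point is 1 tumour (circles KPAT, squares KAT, triangles KPT). Snai1 and Prrx1 climb with the fibroblast level (r = 0.904 and 0.881 over 15 tumours), Vim does not (r = 0.13), and Cdh2 climbs with Vim (r = 0.807).

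The genes whose levels over the 15 tumours were most like each member, by Pearson r of log2 levels among 14048 named genes not on the X or Y chromosome, are given as a description. Snai1 was most like Col1a2 (r = 0.962), a chain of type I collagen, Fstl1 (0.961), a secreted glycoprotein, and Rcn1 (0.951), a calcium-binding protein of the endoplasmic reticulum. Prrx1 was most like Sorbs3 (0.925), Adamts2 (0.923), a procollagen-processing protease, and Thy1 (0.916), a fibroblast surface protein. Col1a2 and Thy1 are themselves among the 10 fibroblast markers. Zeb1 was most like Adamtsl2 (0.930), Bhlhe22 (0.929) and Grip2 (0.925), and Zeb2 most like Tbc1d10a (0.959), Fam217b (0.959) and Wnt9a (0.957). Snai2 was most like Sfmbt2 (0.893), Zfhx4 (0.890) and Dbn1 (0.890), and Twist1 most like the gene Crnde (0.929), Fam19a2 (0.883) and Gprc5a (0.875). Cdh1 was most like Vti1b (0.937), Phldb3 (0.924) and R3hdm4 (0.922), none of them a junction gene. Cdh2 was most like Chka (0.901), Inf2 (0.895) and Arhgap22 (0.895), and Vim most like Odf2 (0.932), Fam129b (0.932) and Surf4 (0.925).

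Of 20 junction and keratin genes, 8 were lower in KPAT than KPT and 9 in KAT than KPT, and none was higher (median log2 fold change -0.59 and -0.61, against 0.02 and 0.03 over all genes). Of all genes, 7.4% were lower in KPAT and 13.3% in KAT than in KPT. The counts were 1 and 3 with the fibroblast covariate, where 342 and 917 of all 16648 genes were called. They were 0 and 0 with the epithelial covariate, beside 0 and 279 of all genes. The epithelial covariate is each tumour's mean log2 level of these same 20 genes, so its 0 counts are no separate check of the list. The KPAT count was 5 with quantile scaling, in a fit of the 2 groups alone and without KPT 1 and KAT 1, and 3 without KPT 3, KAT 2 and KPAT 5. Pkp2, a desmosomal plakophilin, was at 51.1 ± 6.39 in KPAT and 47.9 ± 7.68 in KAT, against 87.1 ± 14.0 in KPT (log2 fold change -0.76, limma adjusted p = 0.00436, and -0.86, limma adjusted p = 0.000797). Crb3, an apical polarity protein, was at 45.4 ± 3.80 in KPAT and 42.2 ± 4.59 in KAT, against 70.1 ± 10.5 in KPT (log2 fold change -0.62, limma adjusted p = 0.00461, and -0.73, limma adjusted p = 0.000666). The junction adhesion molecule gene F11r was at 226 ± 12.2 in KAT against 350.3 ± 72.4 in KPT (log2 fold change -0.61, limma adjusted p = 0.00247). Cldn18, a claudin of gastric epithelium, had a level of 26.8 ± 35.5 in KPAT and 427 ± 572 in KPT (log2 fold change -4.29, limma adjusted p = 0.0138), with a wide spread among KPT tumours. With 1 library left out the KPAT count ran from 4 to 7. It was 4 without KPAT 4, KPAT 5 or KPT 1, and 5 without KPAT 1, KPAT 2, KPAT 3, KAT 4, KAT 5 or KPT 3. Of 10 regulators of epithelial identity 1 was called in KPAT against KPT, near the 7.4% of all genes that were lower there. It was Elf3, an epithelial ETS factor, with 158 ± 105 in KPAT and 488 ± 302 in KPT (log2 fold change -1.69, limma adjusted p = 0.0278). That call ended without KPAT 3, KPAT 5, KPT 1 or KPT 2 (adjusted p up to 0.0714). Grhl1, a grainyhead factor, had an estimate of -0.86 in the same comparison and did not pass (limma adjusted p = 0.132).

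Of all genes, 28.9% were called in KAT against KPT, 13.3% as lower. Of the 10 regulators 3 were lower there and none higher, near the share of all genes called in either direction. The count was 1 by edgeR, in a fit of the 2 groups alone, with array weights and with the fibroblast covariate. It was 0 with the epithelial covariate. Of all 16648 genes, 917 were called there with the fibroblast and 279 with the epithelial covariate. Elf3 was at 133 ± 57.8 in KAT against 488 ± 302 in KPT (log2 fold change -1.84, limma adjusted p = 0.0115). Esrp2, an epithelial splicing regulator, was at 64.6 ± 11.3 in KAT against 87.0 ± 12.8 in KPT (-0.43, limma adjusted p = 0.0353), and Grhl1 at 2.98 ± 1.117 in KAT against 6.31 ± 2.69 in KPT (-1.08, limma adjusted p = 0.0445). The Esrp2 call ended in 5 of the fits that left out 1 library (without KAT 1, KAT 2, KAT 3, KPT 3 or KPT 4, adjusted p up to 0.0914). The Grhl1 call ended in 9 (without KPAT 2, KPAT 4, KAT 1, KAT 2, KAT 5, KPT 1, KPT 2, KPT 3 or KPT 4, adjusted p up to 0.106).

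Among genes on the mesenchymal side, 7 of 17 tested effector genes were higher in KPAT than KPT and none lower. In KAT 9 were higher and 1 lower than in KPT. The median log2 fold changes were 0.58 and 0.86, against 0.02 and 0.03 over all genes. Of all genes, 9.13% were higher and 7.4% lower in KPAT than KPT, and 15.6% higher and 13.3% lower in KAT than KPT. Without KAT 4, 6 genes of the list were called in KAT against KPT, counting either direction. With the fibroblast level as a covariate 0 and 2 were called in KPAT and KAT against KPT, where 342 and 917 of all 16648 genes were. With the epithelial level 0 and 1 were called, beside 0 and 279 of all genes. Tgfbi, a matrix protein induced by TGF-beta, was at 129.98 ± 20.5 in KPAT and 174 ± 36.7 in KAT, against 66.4 ± 17.7 in KPT (log2 fold change 0.99, limma adjusted p = 0.00388, and 1.40, limma adjusted p = 0.000233). Tnc, the matrix protein tenascin C, was at 662 ± 277 in KPAT and 810 ± 390.2 in KAT, against 174 ± 83.8 in KPT (2.06, limma adjusted p = 0.0138, and 2.21, limma adjusted p = 0.00507). Sparc, a collagen-binding matrix protein, averaged 1677 ± 558 in KPAT and 775 ± 285 in KPT (1.15, limma adjusted p = 0.0119). These matrix genes are also products of fibroblasts, whose markers moved the same way as given above. Cdh11 is a member of both this list and the cadherin list.

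Of 12 tested cadherin and catenin genes beside Cdh1 and Cdh2, 2 were higher in KPAT than KPT and none lower, a share near the 16.5% of all genes called in either direction. The list's median log2 fold change was 0.02 in KPAT and -0.18 in KAT against KPT. The KPAT count was 0 without KPT 3, KAT 2 and KPAT 5 together and with either covariate. Cdh11, a cadherin of mesenchymal cells, was at 96.1 ± 42.5 in KPAT and 142 ± 52.0 in KAT, against 35.99 ± 13.04 in KPT (log2 fold change 1.39, limma adjusted p = 0.0180, and 1.99, limma adjusted p = 0.00138). Ctnnb1, the beta-catenin gene, was at 1248 ± 175 in KPAT and 1212 ± 154 in KAT, against 825 ± 107 in KPT (0.60, limma adjusted p = 0.0123, and 0.56, limma adjusted p = 0.00959). In KAT against KPT 3 were higher, and Cdh13 was lower, at 97.6 ± 21.99 in KAT against 181 ± 67.3 in KPT (-0.85, limma adjusted p = 0.00580). Of 13 other tested transcription factors linked to EMT, 2 were higher in KPAT and 3 in KAT than in KPT, and none was lower (medians 0.40 and 0.41), shares near those of all genes called in either direction, 16.5% and 28.9%. Both counts were 0 with the fibroblast and with the epithelial covariate, and the KPAT count was 0 without KPT 3, KAT 2 and KPAT 5 together. Of all 16648 genes, the fibroblast covariate left 342 called in KPAT and 917 in KAT against KPT. The epithelial covariate left 0 and 279. Sox4 was at 169 ± 20.6 in KPAT and 180.5 ± 32.1 in KAT, against 109 ± 17.1 in KPT (0.64, limma adjusted p = 0.0104, and 0.73, limma adjusted p = 0.00266). Tead1, a partner of YAP, was at 159 ± 25.9 in KPAT against 97.9 ± 26.0 in KPT (0.72, limma adjusted p = 0.0169). Foxc2, a forkhead factor, was at 5.31 ± 2.55 in KAT against 1.22 ± 0.524 in KPT (2.05, limma adjusted p = 0.00628), and Tcf4, an E protein, at 127 ± 23.1 in KAT against 89.1 ± 6.89 in KPT (0.50, limma adjusted p = 0.0160).

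In the TGF-beta arm, which induces SNAI and ZEB genes, 4 of 15 genes were higher in KPAT than KPT and none lower. In KAT 4 were higher than in KPT and none lower, and the medians were 0.41 and 0.50. Of all genes, 9.13% were higher in KPAT and 15.6% in KAT than in KPT. The KAT share is near the 28.9% of all genes called there in either direction. The list also holds Smad7, Ski, Skil, Id1, Id2 and Id3, so its counts are not counts of inducers alone. Both counts were 0 with the fibroblast covariate, where 342 and 917 of all 16648 genes were called in KPAT and KAT against KPT. Both were 0 with the epithelial covariate too, beside 0 and 279 of all genes. The KPAT count was 2 with array weights, without KPT 1 and KAT 1 together, and without KPT 3, KAT 2 and KPAT 5 together, and the KAT count was 8 with quantile scaling. The receptor gene Tgfbr2 was at 279.7 ± 50.01 in KPAT and 347 ± 90.9 in KAT, against 131 ± 32.7 in KPT (log2 fold change 1.11, limma adjusted p = 0.00436, and 1.40, limma adjusted p = 0.000423). The ligand genes Tgfb3 and Tgfb2 rose with it. Tgfb3 was at 89.4 ± 22.2 in KPAT and 122 ± 35.8 in KAT, against 43.6 ± 12.2 in KPT (1.06, limma adjusted p = 0.0124, and 1.49, limma adjusted p = 0.000979). Tgfb2 was at 17.9 ± 5.37 in KPAT and 27.6 ± 12.1 in KAT, against 9.29 ± 2.81 in KPT (0.94, limma adjusted p = 0.0407, and 1.501, limma adjusted p = 0.00229). The Tgfb2 call in KPAT ended without KPAT 1, KPAT 2, KPAT 3, KPT 1, KPT 2, KPT 3 or KPT 4 (adjusted p up to 0.0971), and the count for this comparison was 2 without KPAT 2, KPAT 3, KPT 1, KPT 2 or KPT 3.

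**Figure D4:**
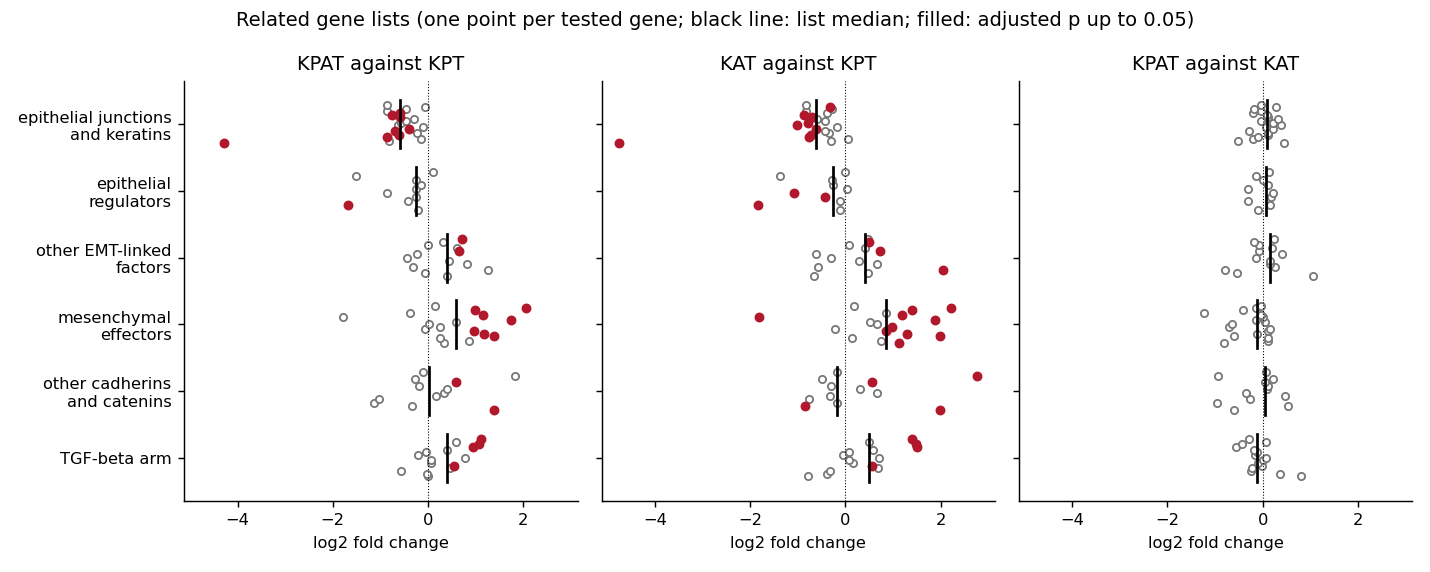
Log2 fold change (x axis) of every tested gene in 6 related lists, for KPAT against KPT, KAT against KPT and KPAT against KAT. Each point is 1 gene, filled red where the adjusted p was up to 0.05, and black lines are list medians. Epithelial genes lie mostly below 0 and mesenchymal effectors mostly above 0 against KPT (medians -0.59 and 0.58 for KPAT), and no point is filled in KPAT against KAT.

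KPAT against KAT asks what floxed Trp53 adds where Arf is already floxed. In these 6 lists limma called 0 genes in this comparison, as did edgeR and DESeq2, while limma with array weights called 1 junction and keratin gene. Of all 16648 genes tested, 1798 were at an unadjusted p below 0.05 in this comparison. Of the lists these were 1 of 20 junction and keratin genes, 0 of 10 epithelial regulators and 1 of 13 other factors. They were 4 of 17 effectors, 1 of 12 cadherins and catenins and 0 of 15 genes of the TGF-beta arm. The genes with the smallest p were Tjp1 (log2 fold change 0.27, limma adjusted p = 0.373) and F11r (0.22, 0.521) among junction genes and Esrp1 (-0.31, 0.591) and Esrp2 (0.18, 0.678) among epithelial regulators. They were Fosl1 (1.06, 0.447) and Foxc2 (-0.79, 0.565) among other factors and Tagln (-1.23, 0.377) and Tgfbi (-0.41, 0.420) among effectors. In the last lists they were Cdh13 (0.52, 0.351) and Cdh11 (-0.60, 0.555), and Tgfb2 (-0.56, 0.501) and Tgfb3 (-0.43, 0.548). None of these passed, and with 5 tumours a group this does not show that KPAT and KAT were alike.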

How the data were processed

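Tumour RNA was prepared with TruSeq RNA libraries and read with a HiSeq4000 instrument, as the labels' protocols state. The submitters' processing notes name HISAT2 2.0.4 and the build mm10 (GRCm38). How reads were counted, on which annotation and strand, and how counts were normalized is not given in the sources used here. Signal values deposited by the authors equal whole reads over 1 factor for each library: multiplied back, 100% fell within 0.01 of a whole number. Values were multiplied by 19.478 reads per unit, common to all libraries.

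Genes with a mean of at least 10 reads, 16648 in number, were fitted as log2(normalized count + 1) over the 15 tumours with limma 3.58.1 in R 4.3.3 (a mean per group, moderated with trend; two-sided; Benjamini-Hochberg over all genes). edgeR 4.0.16 and DESeq2 1.42.0 ran on the recovered reads as alternatives, with the other alternatives described in the closing section. The fit was tested on simulated data. Symbols, exon lengths and coordinates came from GENCODE M21 (GRCm38), which named 20585 of the 20636 genes. Correlations used 100000 permutations, and marker levels all 252 assignments of 5 against 5 tumours. Python 3.11.15 with numpy 2.4.6, scipy 1.17.1, pandas 2.3.3 and matplotlib 3.10.9 was used.

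All 10 members are named. From each of the 6 related lists up to 3 called genes with the smallest p are named per comparison, or the 2 with the smallest p where fewer than 2 were called, and for each tested member the 3 genes with the highest Pearson r. There were 11 marker lists. The result of 1 gene of the mesenchymal effector list is not reported here. The members and lists were chosen with earlier results of these data known.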

Additional observations from a re-analysis of the deposited data

Results flagged for a closer look

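In 30 groups of 5 values (10 members in 3 genotypes), 5 held a tumour that stood apart from the other 4, with a gap to its nearest neighbour of over 0.71 of the group's range. Chance gives this in about 1 in 20 groups. Snai2 stood apart in all 3 genotypes: KPT 4 was high at 12.9, KAT 2 high at 6.37 and KPAT 1 low at 2.58 deposited units. Snai1 was low in KPT 3, at 2.70, the tumour with the lowest fibroblast marker level. Prrx1 was low in KAT 1, at 24.7.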

How the results depend on the processing

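The number of genes called moved by over 1.5 times in these analyses. For KPAT against KPT, 2752 in the main analysis, it was 1811 in a fit of the 2 groups alone, 1728 without KPT 3, KAT 2 and KPAT 5 together, 342 with the fibroblast level as a covariate and 0 with the epithelial level as a covariate (2528 genes at an unadjusted p below 0.05); leaving out 1 library gave 1687 (without KPAT 2) to 2895. For KPAT against KAT, 8 in the main analysis, it was 17 with quantile scaling, 4 on the deposited scale, 15 with the 2 groups alone, 515 with array weights, 284 by DESeq2, 13 with the fibroblast covariate and 17 without KPT 3, KAT 2 and KPAT 5, and from 7 to 45 (without KAT 2) with 1 library left out. For KAT against KPT, 4805 in the main analysis, it was 917 with the fibroblast and 279 with the epithelial covariate, and from 3539 to 4847 with 1 library left out. On the deposited scale 1012 calls were higher and 1108 lower in KPAT against KPT, and 1382 higher and 1908 lower in KAT against KPT, where the main analysis gave 1520 and 1232, and 2599 and 2206.

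Of the members, 4 called in KPAT against KPT and 5 in KAT against KPT, 0 were called in either with the fibroblast or with the epithelial covariate, and 3 in KAT against KPT without KPT 3, KAT 2 and KPAT 5. With 1 library left out the counts ran from 4 to 6 in both, and the count for KPAT against KAT was 0 in every alternative run. With the epithelial covariate the Snai1 values were 2.61 (SE 0.65, adjusted p = 0.135) and 2.05 (SE 0.68, adjusted p = 0.114). Over the 9 tested members, 3 comparisons and all alternatives with an estimate, 826 of the estimates kept direction and side of the threshold, 34 lost a call, 9 gained one and 19 changed sign. The sign changes were all of estimates that had not passed: Twist1 in KPAT against KPT (0.0013 with the fibroblast covariate, and -0.31 to 0.057 with 1 library left out), Cdh2 and Vim in KPAT against KPT with the epithelial covariate (-1.42 and -0.31), Cdh1 in KPAT against KAT (0.025 without KPT 1 and KAT 1, 0.053 without KPT 3, KAT 2 and KPAT 5, and -0.089 to 0.042 with 1 library left out), Snai2 in KAT against KPT (-0.038 by edgeR and -0.039 by DESeq2) and Vim in KAT against KPT (0.15 with quantile scaling, and -0.43 to 0.10 with 1 library left out). The cause was not tested. edgeR on the recovered reads called 2706, 7 and 4684 genes for KPAT against KPT, KPAT against KAT and KAT against KPT.

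With the tumour number as a replicate block, 2248, 7 and 4313 genes were called for KPAT against KPT, KPAT against KAT and KAT against KPT, and 4, 0 and 4 members, Cdh1 being the member lost. Same-numbered tumours did not deviate together (correlations of -0.209 to 0.246, with 5 of 15 above 0.1, and the own number best in 7 of 30 cases), so the numbers were not taken as pairs. Counting error weighs most on Snai2 and Twist2, the members with the fewest reads.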

Other observations

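Some marker lists bear on cells that can express members but have not been described above. Of all genes, 16.5% were called in KPAT against KPT and 28.9% in KAT against KPT. A count of 1 or 2 genes in a list of this size is near those shares and is given as a description only. Schwann and neural cells can express Cdh2 and Zeb2. Of 8 genes of these cells 5 were tested, and 1 was higher in KAT against KPT. None was called in KPAT against KPT or KPAT against KAT. Their summed level was 40.1 to 61.5 in KPAT, 48.4 to 62.7 in KAT and 24.4 to 64.8 in KPT tumours, with Sox10, Gfra3 and Foxd3 at 0 in at least 1 library. Whether Schwann, neural or endocrine cells carried the Cdh2 or Zeb2 RNA of these tumours was not tested. Of 8 genes of endocrine cells, which can express Cdh2, 2 were higher in KAT against KPT and none was called elsewhere. Their summed level was 3.16 to 329 in KPAT, 21.96 to 707 in KAT and 6.95 to 39.7 in KPT tumours.

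Of 9 endothelial markers 2 were higher in KPAT and 6 in KAT than in KPT, where 9.13% and 15.6% of all genes were higher. The 9 markers summed to 213 to 385 in KPAT, 190 to 562 in KAT and 146 to 259.8 in KPT tumours. Of 8 mural and smooth muscle genes 1 was higher in KPAT and 4 in KAT than in KPT (summed level 214 to 448 in KPAT, 178 to 987 in KAT and 128 to 413 in KPT). Of 7 mesothelial genes, 6 of them tested, 2 were higher in KAT than KPT and none was called in KPAT against KPT, with summed levels of 530 to 1701 in KPAT, 396 to 2230 in KAT and 543 to 2692 in KPT. Lymphocyte genes had a summed level over 9 genes of 1.52 to 12.02 in KPAT, 2.86 to 80.0 in KAT (28.4 or more in 4 of the 5) and 4.50 to 22.6 in KPT, and 2 of 8 tested genes higher in KAT than KPT. None of 7 tested acinar genes was called (summed level 17.8 to 634 in KPAT, 73.8 to 940.2 in KAT and 44.6 to 209 in KPT). Of 9 ductal markers 1 was higher and 1 lower in KPAT than KPT, and 2 were lower in KAT than KPT. Of 8 intestinal genes 2 were lower in KPAT and 2 in KAT than in KPT, with summed levels of 428 to 1323 in KPAT, 390 to 2460 in KAT and 1004 to 4319 in KPT, highest in KPT 1.

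The relation of Twist1 with the ductal marker level over the 15 tumours did not pass (r = -0.569, permutation p = 0.0270, adjusted p = 0.0754 over 81 relations; rho = -0.493, permutation p = 0.0659, adjusted p = 0.150; r = -0.590 without KAT 2 and KAT 3, the tumours farthest from the median ductal level). Relative to the group means r with the ductal level was -0.821 for Twist1, -0.736 for Cdh2 and -0.613 for Vim. These values have no test of their own, and that of Twist1 was picked out after all 81 had been seen.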
